A study of Mus musculus with 8 samples.

Results

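A set of 10 hair follicle genes was followed through chemical skin carcinogenesis in mouse epidermis: the bulge stem cell surface marker Cd34, 6 transcription factors of follicle stem cells (Sox9, Lhx2, Nfatc1, Tcf7l1, Tcf7l2 and Foxc1), and 3 hedgehog genes, the ligand Shh, its receptor Ptch1 and the transcription factor Gli1. They were taken by name, not by their values, and make up 10 of the 55487 gene rows. All 10 passed the filter on low counts and are among the 19450 genes tested. The lowest count of any of them in a library was 3 reads (Shh) and the highest 9747 (Sox9).

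The libraries are bulk RNA sequencing of the epidermis of dorsal skin from wild-type FVB mice of 7 to 8 weeks, in 4 groups of 2 libraries each. Mice of the DMBA group were painted a single time with 100 µl of DMBA (7,12-dimethylbenz[a]anthracene, a mutagen that initiates skin tumours) at 1 mg/ml in acetone, and their skin was taken on day 10. The DMBA/TPA group received a single application of DMBA at 1 mg/ml, with no volume stated for that group, and then TPA (12-O-tetradecanoylphorbol-13-acetate, a tumour promoter) at 0.1 mg/ml 2 times a week until day 52. Acetone alone was given to a group for each regimen, Control DMBA and Control DMBA TPA; the sources used here do not give their harvest days, and no allele or transgene is named for any group. The labels do not say whether the 2 libraries of a group came from separate mice, so p-values reflect variation among these libraries only, and that variation may be technical. Epidermis was lifted from the dermis with the protease Dispase, so the libraries hold the interfollicular epidermis together with whatever part of the follicles came away with it.

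Gene counts summed to between 26300400 and 36002886 reads per library. The first principal component carried 55.8% of the variance, with the Control DMBA TPA libraries at one end and the DMBA/TPA libraries at the other. The keratinocyte identity of the tissue was met in every library: the median level over 8 interfollicular keratinocyte markers lay between 1555 and 3521 CPM (read counts scaled to a common library total, with TMM factors). Markers of dermal cells varied among the libraries. The summed level of 12 fibroblast genes was 1242 and 635.8 CPM in Control DMBA, 172.5 and 213 CPM in DMBA, 195.6 and 214.7 CPM in Control DMBA TPA, and 1308 and 3482 CPM in DMBA/TPA. All 12 had reads in both Control DMBA libraries and in the first DMBA library, whereas Mfap5 was at 0 in both libraries of Control DMBA TPA and of DMBA/TPA. In bulk RNA, fewer cells of a type and less RNA per cell cannot be told apart.

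The bulge of the hair follicle houses slow-cycling epithelial stem cells that rebuild the follicle in each hair cycle and can contribute to skin tumours. In mouse, bulge cells carry Cd34 on their surface; Sox9 and Lhx2 maintain their identity, Nfatc1 and Foxc1 help keep them quiescent, and Tcf7l1 and Tcf7l2 (also called Tcf3 and Tcf4) bind the DNA targets of Wnt signalling. In hedgehog signalling, Shh binds Ptch1, which releases the transducer Smo from inhibition and leads to activation of Gli transcription factors. Ptch1, Hhip and Gli1 are themselves transcribed in response, so their levels are widely used as readouts of the pathway; in skin, Shh drives follicle growth, and mutation of Ptch1 leads to basal cell carcinoma.

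In the annotation on GRCm38 (mm10), the genes lie on 9 chromosomes, 2 of them (Foxc1 and Ptch1) on chromosome 13. Cd34 (ENSMUSG00000016494) spans chr1:194938819-194961279 on the plus strand, Shh (ENSMUSG00000002633) chr5:28456815-28467256 on the minus strand, Ptch1 (ENSMUSG00000021466) chr13:63508328-63573598 on the minus strand and Tcf7l1 (ENSMUSG00000055799) chr6:72626378-72789254 on the minus strand. The 250 bases before an annotated transcript start were found in RefSeq (GRCm38.p6) for 6 of the 10 genes. The windows of Ptch1, the hedgehog target that rose, and of Cd34, the bulge marker that fell, are shown because their base composition is unlike: Ptch1 has 41 CG dinucleotides in chr13:63565736-63565985 (minus strand, inside the gene, before one of its alternative starts) and 78.4% G or C, and Cd34 has 6 in chr1:194938571-194938820 (plus strand) and 46.4% G or C. The median over all 32851 windows was 6 CG dinucleotides, and 1.09% of windows had as many as Ptch1 or more. The other genes with windows were not called after DMBA/TPA. Foxc1 and Tcf7l1 had 29 CG dinucleotides each, Lhx2 had 25 and 24 in its windows, and Tcf7l2 had 30 and 7. A link between CG content and direction of change was not tested. Capitals mark CG dinucleotides.
Ptch1: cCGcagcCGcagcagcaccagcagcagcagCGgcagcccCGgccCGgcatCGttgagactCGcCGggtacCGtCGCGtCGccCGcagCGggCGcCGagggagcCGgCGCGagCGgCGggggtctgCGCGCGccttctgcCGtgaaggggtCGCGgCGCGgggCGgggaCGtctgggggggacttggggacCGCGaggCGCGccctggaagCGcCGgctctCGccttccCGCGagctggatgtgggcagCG
Cd34: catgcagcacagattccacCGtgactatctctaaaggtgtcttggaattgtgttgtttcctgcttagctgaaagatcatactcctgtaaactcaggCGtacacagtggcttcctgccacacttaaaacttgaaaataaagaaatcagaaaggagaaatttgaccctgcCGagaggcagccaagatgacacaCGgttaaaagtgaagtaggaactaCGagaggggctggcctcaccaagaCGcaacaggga
The letters GACCACCCA, at the core of the Gli binding motif, and ATCAAAG, of the TCF/LEF motif, were searched on both strands, and the 2 motifs do not overlap in their letters. Neither was found in any of the windows of the 6 genes, against 0.225% and 3.21% of all windows. That says only that these letters are not in those 250 bases.

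Per kilobase of exon, the mean level over the 8 libraries was highest for Sox9, at 44.6 CPM per kb, followed by Nfatc1 at 21.5, Foxc1 at 17.2 and Lhx2 at 15.7 CPM per kb. Cd34 at 6.05, Tcf7l2 at 5.94, Ptch1 at 5.36, Gli1 at 3.95 and Tcf7l1 at 3.84 CPM per kb formed a lower tier. Shh was by far the lowest, at 0.473 CPM per kb. The ligand was thus represented by few reads, while its receptor and target were well covered.

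**Figure D1:**
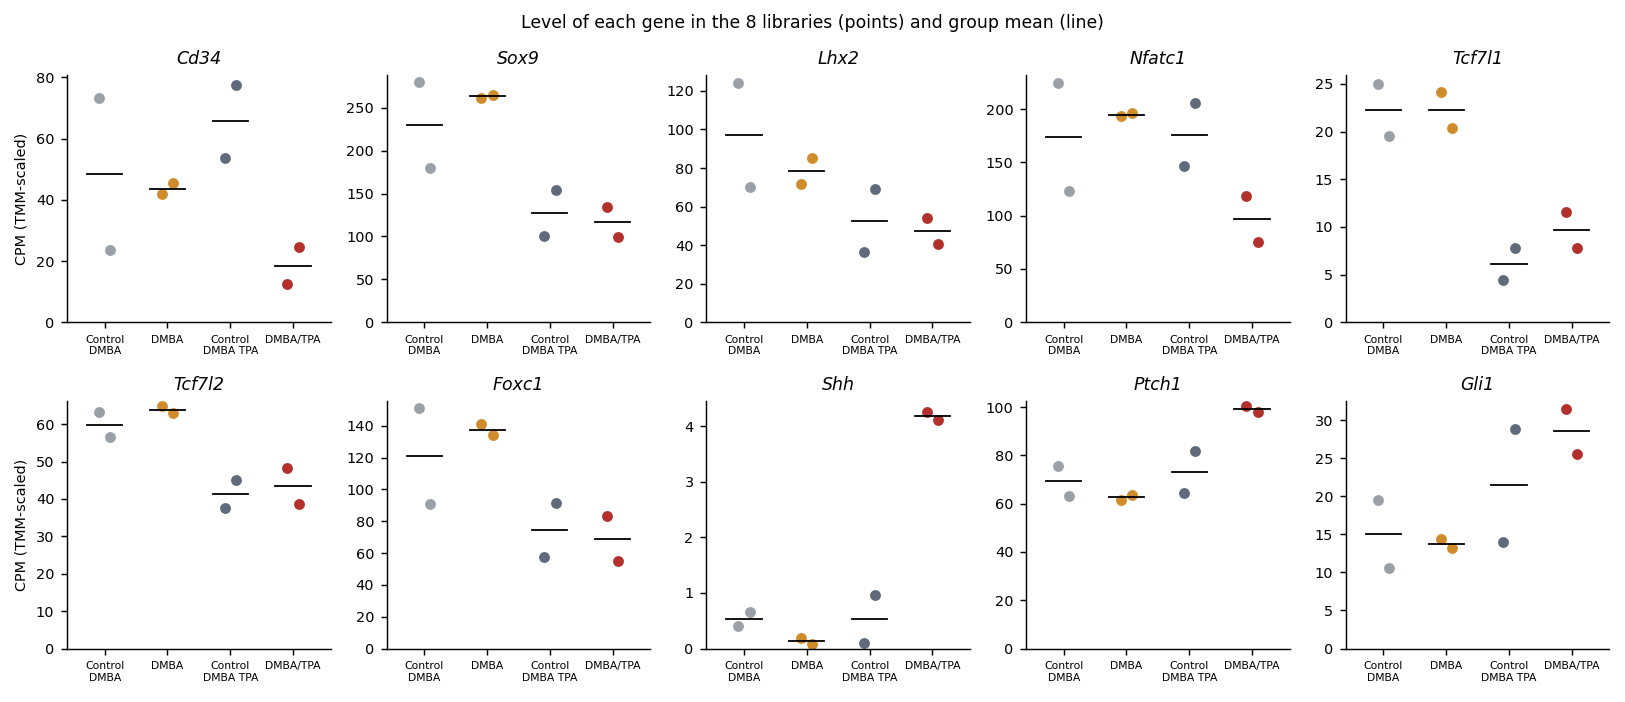
Level in CPM (y axis, from 0 in each panel) of the 10 genes in the 4 groups (x axis); points are libraries and lines are group means. Shh and Ptch1 stand highest in both DMBA/TPA libraries and Cd34 is lowest in one of them, while Tcf7l1 is lower in the 4 libraries of the DMBA/TPA regimen and its acetone group than in the other 4.

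On day 10 after a single DMBA application, none of the 10 genes was called against acetone-treated epidermis. In the quasi-likelihood test of edgeR, adjusted by Benjamini-Hochberg over all genes, 0 of 10 were called at an adjusted p under 0.05, where 0.267% of all genes tested were called (0.19% higher and 0.0771% lower). The count was also 0 at an unadjusted p under 0.05, with DESeq2 and with limma voom. The median log2 fold change of the 10 genes was -0.064, beside -0.006 over all genes tested. Of the 10 changes, 9 lay between -0.31 and 0.20 on the log2 scale, and the groups overlapped for 9 of 10 genes; 39.3% of all genes tested had groups that did not overlap.

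Shh was the gene whose groups did not overlap. It had 14 and 23 reads (0.410 and 0.656 CPM) in the Control DMBA libraries and 6 and 3 reads (0.194 and 0.0815 CPM) in the DMBA libraries. Both DMBA libraries were lower, but the log2 fold change of -1.96 ± 0.90 (SE) had an adjusted p of 0.573 with edgeR, so a difference was not detectable at this depth. Cd34 stood at 73.4 and 23.6 CPM in Control DMBA and at 41.8 and 45.6 CPM in DMBA. The DMBA libraries lay between the acetone libraries, and the spread of 35.2 CPM (SD, n = 2) in the acetone group is larger than the difference of the means. Sox9 was at 279.7 and 179.2 CPM in Control DMBA and at 261.9 and 264.9 CPM in DMBA, again inside the acetone range, as were Nfatc1, Foxc1 and Lhx2.

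After DMBA followed by TPA, the hedgehog ligand Shh and its receptor and target Ptch1 rose and the bulge marker Cd34 fell against the matching acetone group. These 3 of the 10 genes were called, 2 higher and 1 lower, whereas 40.7% of all genes tested were called (22.4% higher and 18.3% lower). The share among the 10 is therefore no larger than among all genes, and the median log2 fold change of the 10, -0.022, is close to that of all genes tested, -0.003. DESeq2 called 4 of the 10 and limma voom 3, for which no share over all genes is given here. The groups did not overlap for 5 of 10 genes, beside 74.9% of all genes tested.

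Shh, the secreted ligand, had 3 and 35 reads in the Control DMBA TPA libraries (0.105 and 0.962 CPM) and 108 and 105 reads in the DMBA/TPA libraries (4.25 and 4.11 CPM). Both DMBA/TPA libraries exceeded every other library of the series, and they differed little from each other, while the acetone libraries differed 9.20-fold. The mean rose from 0.533 ± 0.606 to 4.18 ± 0.0959 CPM (SD, n = 2 each), a 7.84-fold difference. The fitted log2 fold change was 2.90 ± 0.68 (SE), with an adjusted p of 0.0115 under edgeR, and the rise was called in 15 of 15 alternative analyses. Against the acetone group of the other regimen it was 2.96 on the log2 scale. The direction thus did not rest on the choice of acetone group, although the level stayed low in reads.

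Ptch1, the Shh receptor and a transcriptional target of the pathway, stood at 64.3 and 82.0 CPM in Control DMBA TPA and at 100.6 and 97.8 CPM in DMBA/TPA. Both DMBA/TPA libraries were above all 6 others. The log2 fold change was 0.44 ± 0.14 (SE), a 1.36-fold difference of means, with an edgeR adjusted p of 0.0334. The call was kept in 8 of 15 alternatives; the adjusted p was 0.122 when libraries were scaled by total counts, 0.0632 with the compared groups fitted alone, 0.216 without the first Control DMBA TPA library, 0.0679 and 0.0719 without the first or second DMBA/TPA library, and 0.0634 and 0.0635 without the first or second DMBA library.

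Gli1, the Gli factor whose own transcription reports pathway activity, was at 14.1 and 28.9 CPM in Control DMBA TPA and at 31.5 and 25.6 CPM in DMBA/TPA. The second acetone library lay between the DMBA/TPA libraries, so the groups overlapped. The log2 fold change of 0.41 ± 0.36 (SE) had an edgeR adjusted p of 0.384. A short stretch of 62 bases, 1.24% of the exon length of Gli1, is shared with Arhgap9 on the opposite strand, and the sources used here do not give the strand setting of the counting.

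Beside the Ptch1 and Shh differences, fibroblast markers also differed between these groups: of the 11 fibroblast genes measured, 8 were called higher in DMBA/TPA and 1 lower, and the 12-gene sums were those given above. In Control DMBA TPA most of the sum was Thy1 (117.2 and 109.9 CPM) and Col6a1 (47.5 and 52.7 CPM). Thy1 was the gene called lower, at 60.1 and 50.5 CPM in DMBA/TPA, and Col6a1 was not called. Of the 7 T cell genes, 5 were also called lower and 1 higher. Which cells the Thy1 reads came from was not tested, so the sum may not reflect fibroblasts alone. Col3a1 went from 0.628 and 1.73 CPM to 215.3 and 479 CPM, so the sum understates the change of some of these genes. Fibroblasts and dermal papilla cells are also known to express Ptch1 and Gli1. The part of dermal RNA in the Ptch1 change was not tested. Library by library, the sum and Ptch1 did not keep 1 order: within DMBA/TPA the library with the larger sum had the lower Ptch1, and the second Control DMBA TPA library had Ptch1 at 82.0 CPM with a sum of 214.7 CPM. The first Control DMBA library had a fibroblast sum of 1242 CPM, near the 1308 CPM of the first DMBA/TPA library. Ptch1 was at 75.4 CPM against 100.6 CPM and Shh at 0.410 CPM against 4.25 CPM. These 2 sums were made up differently, with Col1a1 at 394.9 against 623.2 CPM and Col3a1 at 355 against 215.3 CPM. What such single libraries say about dermal RNA was not tested.

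Cd34, a sialomucin of the cell surface, was at 53.8 and 77.7 CPM in Control DMBA TPA and at 12.4 and 24.4 CPM in DMBA/TPA. The groups did not overlap, with the higher DMBA/TPA library below the lower acetone library. The mean fell from 65.7 ± 16.9 to 18.4 ± 8.52 CPM (SD, n = 2 each), and the log2 fold change was -1.84 ± 0.50 (SE), with an edgeR adjusted p of 0.0212. The call was kept in 12 of 15 alternatives and was lost without the first Control DMBA TPA library (adjusted p = 0.0504), without the second (0.102) and without the first DMBA/TPA library (0.0737). Against the other acetone group, which held one library at 23.6 CPM, the log2 fold change was -1.40 with an adjusted p of 0.0825.

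Cd34 is also carried by endothelial cells, mast cells and some fibroblasts. The summed level of 11 endothelial genes was 9.28 and 7.59 CPM in Control DMBA TPA, where Cdh5, Emcn and Sox17 were at 0 in both libraries, and 50.7 and 88.6 CPM in DMBA/TPA. Of the 10 endothelial genes measured, 8 were called higher and 0 lower. The summed level of 7 mast cell genes was 7.60 and 8.68 CPM in Control DMBA TPA, with Mcpt4, Tpsb2, Cma1, Ms4a2 and Fcer1a at 0 in both, and 15.5 and 11.4 CPM in DMBA/TPA; 2 of the 5 measured were called higher. Most of the mast cell sum was Kit, which melanocytes also express: it was at 7.53 and 8.68 CPM in Control DMBA TPA and at 13.0 and 8.89 CPM in DMBA/TPA, and was not called with edgeR (adjusted p = 0.178). Between these groups the sums and Cd34 went in opposite directions, but among libraries of 1 group they did not always do so. In Control DMBA, the first library had the higher Cd34 (73.4 against 23.6 CPM) and the higher endothelial (22.9 against 13.6 CPM), mast cell (14.7 against 6.30 CPM) and fibroblast sums. In DMBA/TPA, the library with the higher Cd34 also had the higher endothelial and fibroblast sums (fibroblast 3482 against 1308 CPM). Its mast cell sum was the lower (11.4 against 15.5 CPM). The part of these cell types in the Cd34 change was not tested.

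**Figure D2:**
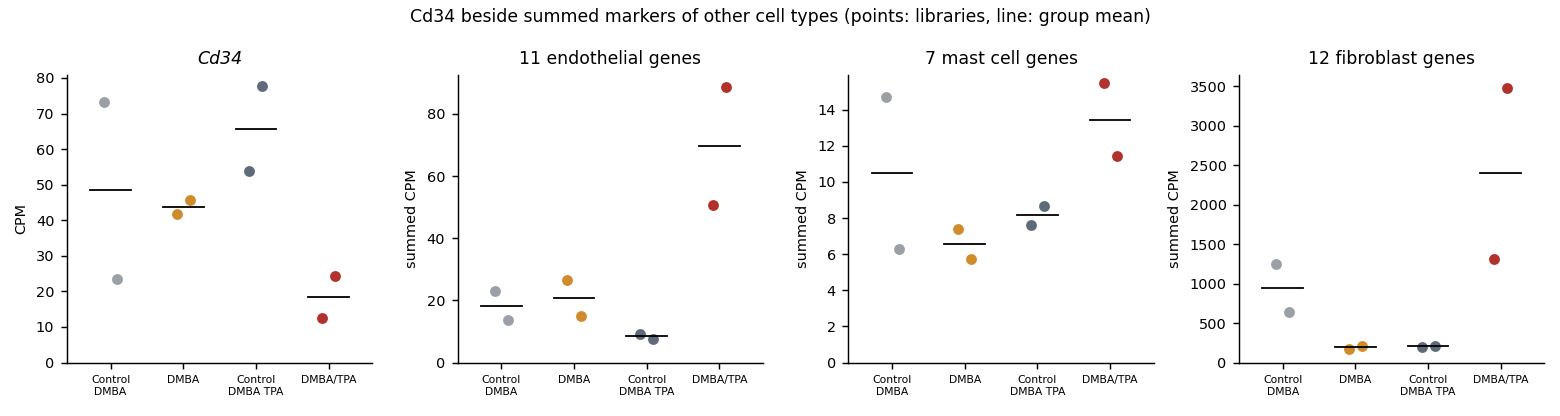
Cd34 in CPM (left) and the summed CPM of 11 endothelial, 7 mast cell and 12 fibroblast genes (y axes, from 0) in the 4 groups (x axis); points are libraries and lines group means. Cd34 is at 12.4 and 24.4 CPM in the DMBA/TPA libraries, in which the other sums are above those of Control DMBA TPA.

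Among the stem cell transcription factors, none was called after DMBA/TPA. Nfatc1 came nearest: it was at 146 and 206 CPM in Control DMBA TPA and at 118 and 75.1 CPM in DMBA/TPA, without overlap. Its log2 fold change was -0.87 ± 0.31 (SE) with an edgeR adjusted p of 0.0529, and it was called lower in 7 of 15 alternatives, DESeq2 among them at an adjusted p of 0.00712. Tcf7l1 was at 4.46 and 7.83 CPM in Control DMBA TPA and at 11.6 and 7.83 CPM in DMBA/TPA. The groups met at 7.83 CPM without crossing, and the log2 fold change of 0.65 ± 0.29 (SE) had an adjusted p of 0.109. Its sign depended on the acetone group, since against Control DMBA it was -1.20 with an adjusted p of 0.0251. Sox9 (-0.13), Lhx2 (-0.16), Foxc1 (-0.11) and Tcf7l2 (0.07) had log2 fold changes near 0, with standard errors of 0.26, 0.34, 0.30 and 0.14, and their groups overlapped. These values too depended on the acetone group: against Control DMBA, Sox9 was called lower (-0.97 ± 0.26, edgeR adjusted p = 0.0357), and Lhx2 (-1.04), Foxc1 (-0.81) and Tcf7l2 (-0.46) were not called, with adjusted p of 0.0644, 0.0886 and 0.0513.

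Whether the response to DMBA/TPA differed from the response to DMBA alone was tested by the difference of the 2 log2 fold changes. Shh was called, as 1 of 10 genes, while 12.6% of all genes tested were called (8.7% higher and 3.95% lower). Its difference was 4.87 ± 1.12 (SE) with an edgeR adjusted p of 0.0309, from a response of -1.96 to DMBA and of 2.90 to DMBA/TPA. It was called in 11 of 14 alternatives, and lost without the second Control DMBA library (adjusted p = 0.0949), the first DMBA library (0.0725) or the second (0.135). The differences for Ptch1 (0.58 ± 0.19, adjusted p = 0.0809) and Cd34 (-1.69 ± 0.69, adjusted p = 0.136) were not called with edgeR.

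The acetone-treated groups of the 2 regimens were themselves unlike for Tcf7l1. It stood at 24.9 and 19.5 CPM in Control DMBA and at 4.46 and 7.83 CPM in Control DMBA TPA, with no overlap. The log2 difference of -1.85 ± 0.29 (SE) had an edgeR adjusted p of 0.0143, and it was kept in 13 of 15 alternatives, being lost without the first Control DMBA TPA library (adjusted p = 0.113) or the first Control DMBA library (0.0510). Tcf7l1 was the 1 gene of 10 called, beside 6.25% of all genes tested (1.97% higher and 4.28% lower). The groups did not overlap for 4 of 10 genes, beside 60.2% of all. Sox9 (-0.85 ± 0.26, adjusted p = 0.0939), Lhx2 (-0.88 ± 0.34, adjusted p = 0.154) and Tcf7l2 (-0.53 ± 0.14, adjusted p = 0.0629) were the other non-overlapping genes and were not called with edgeR. The sources used here do not say what else differed between the acetone groups.

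Set directly against DMBA alone, the DMBA/TPA libraries had higher Shh and Ptch1 and lower Sox9, Tcf7l1 and Tcf7l2. The 2 groups differ in the harvest day, 10 against 52, as well as in TPA, and the DMBA/TPA libraries are those of the comparison above. Of the 10 genes, 5 were called, beside 14.6% of all genes tested (8.9% higher and 5.67% lower), and the groups did not overlap for 10 of 10 genes, beside 61.3% of all. Sox9 was at 261.9 and 264.9 CPM in DMBA and at 134.5 and 99.2 CPM in DMBA/TPA, a log2 difference of -1.17 ± 0.26 (SE) with an edgeR adjusted p of 0.0234. Tcf7l1 differed by -1.20 ± 0.29 (adjusted p = 0.0294) and Tcf7l2 by -0.56 ± 0.14 (adjusted p = 0.0342). Between the acetone groups, Control DMBA TPA minus Control DMBA, the log2 differences of the same genes were -0.85 for Sox9, -1.85 for Tcf7l1 and -0.53 for Tcf7l2, of which Tcf7l1 was called. Shh differed by 4.92 ± 0.82 (adjusted p = 0.00838) and Ptch1 by 0.66 ± 0.14 (adjusted p = 0.0179), with no such difference between the acetone groups (0.06 and 0.08). The edgeR calls of all 5 genes were lost when either DMBA library was left out, with adjusted p from 0.0538 to 0.160, as were those of Sox9, Tcf7l1 and Tcf7l2 without the second DMBA/TPA library (0.0994, 0.120 and 0.134). Tcf7l2 was called in 10 of 15 alternatives, and was also lost with the compared groups fitted alone (0.0625) and without the first Control DMBA TPA library (0.0502).

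**Figure D3:**
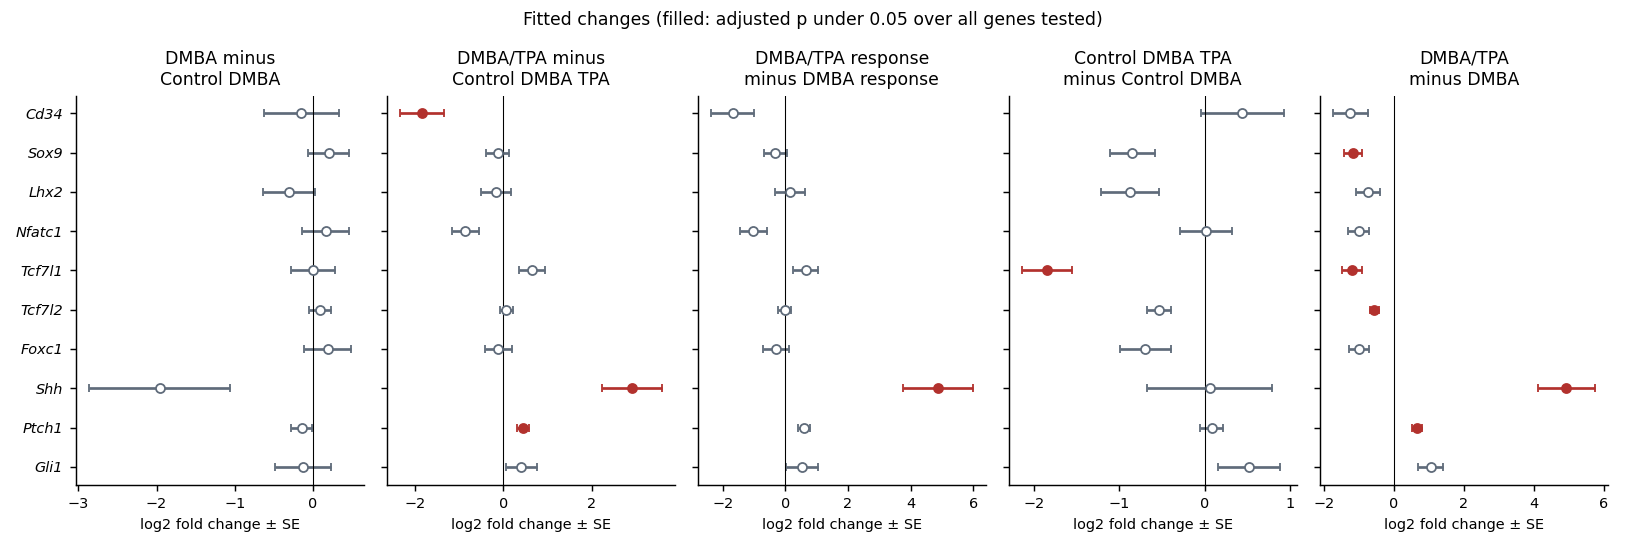
Fitted log2 fold change with its standard error (x axes, scaled separately) of the 10 genes (y axis) in the 5 comparisons; filled red points have an adjusted p under 0.05 over all genes tested. Called genes number 0, 3, 1, 1 and 5 from left to right, with Shh the called gene of largest change in the 3 panels that involve the DMBA/TPA group.

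The groups can be ordered by mean level for each gene. Shh ran from DMBA/TPA (4.18 CPM) through Control DMBA TPA and Control DMBA (0.533 CPM each) to DMBA (0.138 CPM), and of these steps the first was called. The acetone groups were level for Shh, so their order is not read. Ptch1 and Gli1 were also highest in DMBA/TPA and lowest in DMBA, with Control DMBA TPA above Control DMBA between them. Ptch1 ran from 99.2 through 73.1 and 69.2 to 62.6 CPM. Gli1 ran from 28.6 through 21.5 and 15.05 to 13.8 CPM, but its neighbours overlapped at every step. Cd34 ran from Control DMBA TPA (65.7 CPM) through Control DMBA (48.5 CPM) and DMBA (43.7 CPM) to DMBA/TPA (18.4 CPM), and no single step of this order was called. Sox9, Lhx2, Tcf7l1, Tcf7l2 and Foxc1 were highest in the 2 groups of the DMBA regimen. For Foxc1, means of 137.5 CPM in DMBA and 120.9 CPM in Control DMBA stood beside 74.4 CPM in Control DMBA TPA and 68.8 CPM in DMBA/TPA, with overlap between neighbours at each step. Tcf7l1 fell between Control DMBA (22.2 CPM) and DMBA/TPA (9.70 CPM) with an edgeR adjusted p of 0.0251.

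The 10 genes differed between libraries of 1 group, and mostly in the same direction. In Control DMBA, 9 of 10 were higher in the first library than in the second, with a median ratio of 1.61, where 48.6% of all genes tested were higher in the first. In Control DMBA TPA, 0 of 10 were higher in the first library (median ratio 0.638), beside 50.3% of all genes. In DMBA/TPA, 9 of 10 were higher in the first (median ratio 1.29, beside 51.0%), and in DMBA 5 of 10 were (median ratio 1.01, beside 51.7%). The exception in Control DMBA was Shh, and the exception in DMBA/TPA was Cd34, at 0.507 of the second library. The largest ratios were those of Cd34 in Control DMBA (3.11) and of Shh in Control DMBA TPA, where the second library was 9.20-fold higher. The hedgehog readouts, like all 10 genes, were higher in that second acetone library. From the first library to the second, Ptch1 went from 64.3 to 82.0 CPM and Gli1 from 14.1 to 28.9 CPM.

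**Figure D4:**
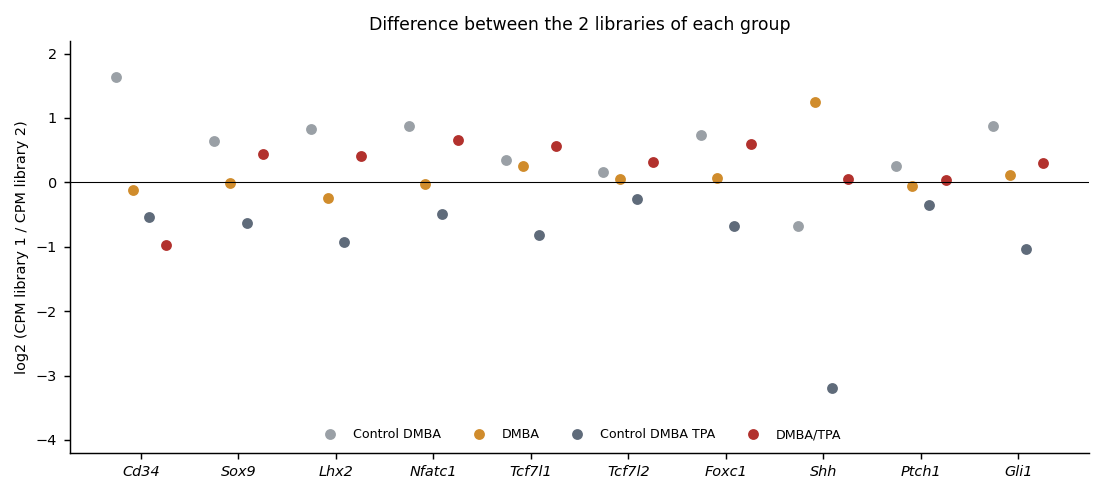
Log2 ratio of the first to the second library of each group (y axis) for the 10 genes (x axis), with a colour per group. Points of Control DMBA and DMBA/TPA lie above 0 for 9 of 10 genes and those of Control DMBA TPA lie below 0 for 10 of 10, while those of DMBA fall on both sides of 0.

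Beyond Shh, Ptch1 and Gli1, a list of 20 hedgehog pathway genes was measured. After DMBA/TPA, 3 of the 20 were called higher, 5 lower and 12 neither, with a median log2 fold change of -0.14. Over all genes tested, 40.7% were called in this comparison (22.4% higher and 18.3% lower, median -0.003). The share called in this hedgehog list is near that background. After DMBA, 0 of 20 were called in either direction, beside 0.267% of all genes tested. Dhh, a further hedgehog ligand, had 0 and 5 reads in Control DMBA TPA, while the DMBA/TPA libraries had 22 and 36, with an edgeR adjusted p of 0.00534. It had more reads in the DMBA libraries, 73 and 66, so Dhh did not follow the pattern of Shh.

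Sufu, an inhibitor that holds Gli proteins in the cytoplasm, rose (log2 fold change 0.63 ± 0.13, adjusted p = 0.00764), as did the signal transducer Smo (0.36 ± 0.11, adjusted p = 0.0343, called in 7 of 15 alternatives). The genes that fell were Gpc3, a glypican that binds hedgehog (-3.47 ± 0.27, adjusted p = 0.000328), Disp1, which releases the ligand from the producing cell (-1.23 ± 0.22, adjusted p = 0.00388), Cdon and Boc, co-receptors (-0.97 and -0.80), and Scube2, which helps ligand release (-0.93). Hhip, a decoy receptor and target, went from 3.52 and 4.45 CPM to 1.65 and 1.10 CPM, a log2 change of -1.54 ± 0.64 that was not called with edgeR (adjusted p = 0.0861). Gli2 (-0.08 ± 0.24) and Gli3 (0.14 ± 0.13) were not called either. Of the target genes described, Ptch1 rose, while Gli1 and Hhip were not called.

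**Figure D5:**
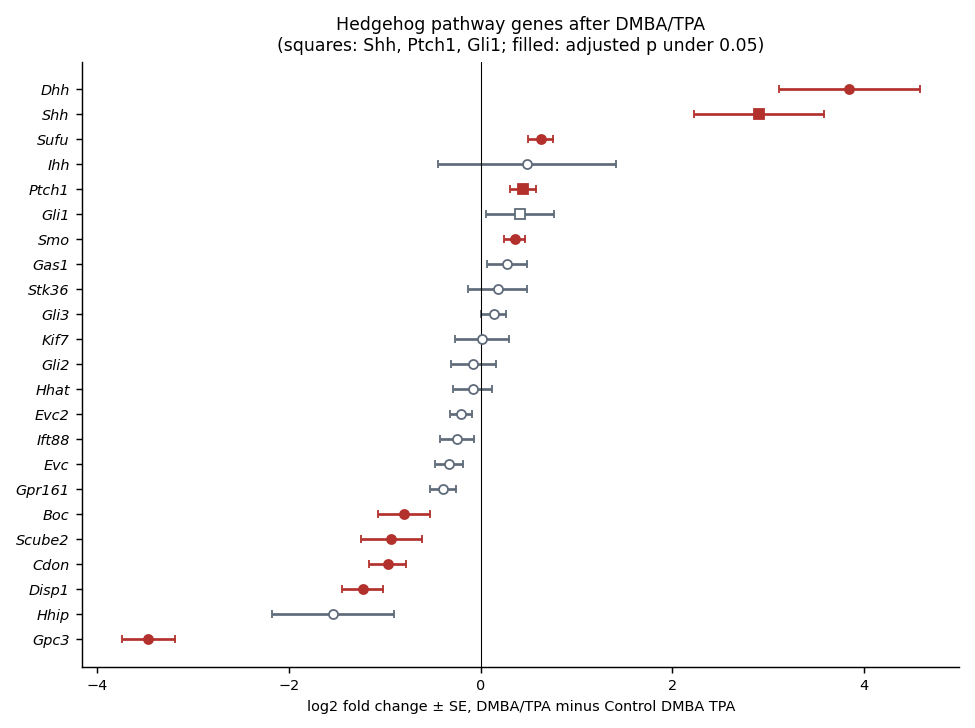
Log2 fold change with its standard error (x axis) of Shh, Ptch1, Gli1 (squares) and 20 further hedgehog pathway genes (circles) between DMBA/TPA and Control DMBA TPA; filled red points have an adjusted p under 0.05. Dhh and Shh are at the upper end and Gpc3, at -3.47, at the lower.

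Other genes of the bulge and outer root sheath moved in both directions after DMBA/TPA: of 28 genes, 7 were called higher, 9 lower and 12 neither, with a median log2 fold change of -0.31, beside 22.4% higher and 18.3% lower over all genes tested. Barx2 (1.63 ± 0.19, adjusted p = 0.00091), Runx1 (1.53 ± 0.18, adjusted p = 0.000946) and the basal keratin Krt14 (2.27 ± 0.33, adjusted p = 0.00204) rose, and Gas6, a ligand of TAM receptor kinases, fell (-0.80 ± 0.12, adjusted p = 0.00249). Krt15, a keratin used as a bulge marker beside Cd34 and added here for that reason after its values were seen, was at 2946 and 3546 CPM in Control DMBA TPA and at 1111 and 846.6 CPM in DMBA/TPA. It fell without overlap, with a log2 fold change of -1.73 ± 0.29 (adjusted p = 0.00317), but it is 1 of 28 genes of a list that moved both ways: Itgb6 (1.33 ± 0.22, adjusted p = 0.00314) and Tbx1 (1.08 ± 0.24, adjusted p = 0.00952), also named after their values were seen, rose, and Cd200 (0.50 ± 0.32) and Lrig1 (0.40 ± 0.19) were not called. Between the acetone groups, 0 of the 28 were higher and 7 lower in Control DMBA TPA, beside 1.97% higher and 4.28% lower over all genes tested.

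Of 15 Wnt pathway partners of the Tcf factors, 5 were called higher, 7 lower and 3 neither after DMBA/TPA, with a median of 0.07, beside 22.4% higher and 18.3% lower over all genes tested, the shares against which the next lists are also to be read. Pygo1 (-1.90 ± 0.26, adjusted p = 0.00168) and Bcl9 (-0.75 ± 0.11, adjusted p = 0.00193), which join beta-catenin to transcription, fell, as did the feedback inhibitor and target Axin2 (-0.85 ± 0.13, adjusted p = 0.00248). Ctnnbip1, an inhibitor of the binding of beta-catenin to Tcf factors, rose (0.67 ± 0.11, adjusted p = 0.00268). Of 18 measured genes of the hair germ and matrix, 9 were called higher and 2 lower; Foxe1 (4.09 ± 0.34), Msx1 (2.96 ± 0.35) and Ovol1 (1.30 ± 0.17) rose with adjusted p of 0.000359, 0.00097 and 0.00143, and Axin2, which stands in both lists, fell. Edar, a receptor of the follicle placode, was the gene of these lists called after DMBA: it went from 3.23 and 2.17 CPM to 0.356 and 0.353 CPM (-2.91 ± 0.43, edgeR adjusted p = 0.0467) and was called in 8 of 15 alternatives.

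Genes of the inner root sheath and hair shaft, which are made in growing follicles, differed widely between the groups. After DMBA/TPA, 19 of 22 measured were called higher, 1 lower and 2 neither. Their median level was 8.24 and 21.4 CPM in Control DMBA, 9.42 and 2.87 CPM in DMBA, 0.0523 and 0.234 CPM in Control DMBA TPA, and 64.2 and 8.01 CPM in DMBA/TPA. Krt86, a hair keratin, was at 0 and 0.137 CPM in Control DMBA TPA and at 74.3 and 10.2 CPM in DMBA/TPA, and Krt34, also a hair keratin, at 0 and 0.0275 CPM and at 52.4 and 6.31 CPM. Padi3, which modifies hair proteins, was at 0 and 0.137 CPM and at 76.7 and 51.3 CPM. Gata3, a factor of the inner root sheath and epidermis, fell (-1.18 ± 0.18, adjusted p = 0.00229). The 2 DMBA/TPA libraries differed in this list while Shh differed little between them (4.25 and 4.11 CPM), and depending on the alternative between 2 and 19 of the genes were called higher. Between the acetone groups, 13 of 22 were lower and 0 higher in Control DMBA TPA, the group in which Tcf7l1 was also lower. Over all genes tested, 4.28% were lower and 1.97% higher in that comparison. The part of follicle content in the changes of the 10 genes was not tested.

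The dermal papilla, the mesenchyme at the base of the follicle, was represented by 11 measured genes of 15. After DMBA/TPA, 3 were called higher, 4 lower and 4 neither. Crabp1 (4.14 ± 0.74, adjusted p = 0.00424) and the ligand Wnt5a (1.67 ± 0.31, adjusted p = 0.00481) rose, and the secreted Wnt agonist Rspo3 (-3.58 ± 0.56, adjusted p = 0.00254) and the ligand Bmp4 (-1.22 ± 0.22, adjusted p = 0.00394) fell. Among the marker lists not yet described, after DMBA/TPA the numbers called higher and lower were 5 and 0 of 6 for melanocytes, 1 and 5 of 7 for T cells, 2 and 1 of 8 for macrophages and Langerhans cells, 0 and 2 of 12 for the sebaceous gland and 3 and 1 of 8 for interfollicular keratinocytes. They were 0 and 0 of 2 for adipocytes, 0 and 1 of 2 for skeletal muscle and 0 and 2 of 6 for nerve and Schwann cells.

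Among the 5 protein-coding genes whose log2 CPM was most like that of Shh over the 8 libraries were Hsd11b2 (Pearson r = 0.977), Nrp2 (0.975), Wnk3 (0.962) and Kif1b (0.962). The 5 most like Cd34 were Rcbtb1 (0.974), Slc18a3 (0.967), Htra4 (0.958), Rgs19 (0.954) and Tmem63a (0.953). They were picked as the highest of all genes tested, share the same 8 libraries and groups, and are given as a description. Some rest on few reads: Hsd11b2 ranged from 0 to 1.30 CPM and Wnk3 from 0.349 to 0.744 CPM. Slc18a3 ranged from 0.0393 to 0.586 CPM and Htra4 from 0.118 to 0.733 CPM. Rcbtb1 moved over a narrow range, from 21.0 to 28.2 CPM, although its order of libraries was the same as that of Cd34.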

How the data were processed

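The authors deposited raw read counts for each Ensembl gene and library. Per the labels' protocols, RNA of Dispase-separated epidermis was depleted of ribosomal RNA and made into directional libraries. The tools were TopHat2, Bowtie2, cutadapt and FastQC, with mm10, per the submitters' processing notes; the sources used here do not give the counting program, its annotation or its strand setting. The 5 summary rows of each file were removed (reads in genes were 35.2% to 43.3% of all). Of 55487 gene IDs, 55141 (99.4%) matched GENCODE M21 on the same build.

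The filter was filterByExpr with a minimum count of 10 and a minimum total of 15, and 19450 genes passed. With TMM factors of 0.911 to 1.05, all 8 libraries were fitted in 1 model with a mean per group, and contrasts were tested in edgeR 4.0.16 (R 4.3.3) by its quasi-likelihood F test, called at a Benjamini-Hochberg adjusted p under 0.05 (residual degrees of freedom 4, biological coefficient of variation 0.165). The script was tested on simulated data. Standard errors are the log2 fold change divided by the root of F. SDs rest on 2 libraries per group. Alternatives were other scaling, no filter, DESeq2 1.42.0, limma 3.58.1 voom, a replicate block, the compared groups alone, other acetone controls and each library left out. No pair of replicate libraries was a duplicate (chi-square per degree of freedom 12.0 to 71.7).

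The genes and lists were chosen with earlier results of these data known. Named from each list were up to 4 called genes with the smallest adjusted p after DMBA/TPA and any called after DMBA, and for Shh and Cd34 the 5 protein-coding genes of highest correlation. In the hedgehog list, genes beyond these were chosen after their values were seen. Scaling by total counts moved the median log2 fold change of all genes by up to 0.135. Promoter windows are from RefSeq. A gene of the planned lists is not reported here.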

Additional observations from a re-analysis of the deposited data

Results flagged for a closer look

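The response of Shh to DMBA/TPA differed from its response to DMBA by 4.87 on the log2 scale (SE 1.12, edgeR adjusted p = 0.0309). It stands here because 2 contrasts against their own acetone groups differed in the test of the difference itself. Both DMBA libraries were below both Control DMBA libraries, at 6 and 3 reads against 14 and 23, and both DMBA/TPA libraries were above both Control DMBA TPA libraries, at 108 and 105 reads against 3 and 35.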

How the results depend on the processing

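Of 780 recomputed log2 fold changes of the 10 genes, 651 kept their direction and their side of the threshold, 48 reversed, 31 lost a call and 50 gained one; the cause was not tested. The alternatives counted per gene in the text leave out the other acetone controls. With 2 libraries per group and 4 residual degrees of freedom, the spread is estimated from few libraries, and Shh also rests on few reads. Against the other regimen's acetone group, 3 of the 10 genes and 3210 of all genes were called after DMBA, with Lhx2 at 0.57 on the log2 scale. After DMBA/TPA, 3766 of all genes were called against it. Tcf7l1 was there at -1.20 and Sox9 at -0.97, each called lower, and Tcf7l2 at -0.46, not called. With all acetone libraries as 1 control, 4632 genes were called after DMBA/TPA, with Lhx2 at 0.067 after DMBA and Tcf7l1 at -0.55 and Tcf7l2 at -0.22 after DMBA/TPA. With no filter, 661 genes were called after DMBA, 5 of the 10 genes after DMBA/TPA, 4 of the 10 and 4041 in all for the difference of responses, 5 and 2451 between the acetone groups, and 10 of 10 between DMBA/TPA and DMBA. With DESeq2 the numbers were 428 of all genes after DMBA, 3 of the 10 for the difference of responses, 4 of the 10 and 2087 in all between the acetone groups, and 8 of the 10 between DMBA/TPA and DMBA. The main fit called 52, 2460 and 1216 of all genes after DMBA, for the difference and between the acetone groups. The totals printed for no filter and DESeq2 are larger. Higher counts of the 10 under them are therefore not a result about these genes. For counts of the 10 that stand alone, no total over all genes is given here. With the compared groups alone, 2 of the 10 and 1955 in all were called between the acetone groups and 1812 in all between DMBA/TPA and DMBA, and Tcf7l1 was at -0.001 after DMBA. Total counts gave -0.013 for Tcf7l1 after DMBA and -0.045 for Tcf7l2 after DMBA/TPA, and limma voom gave 0.073 for Cd34 after DMBA and -0.51 for Shh between the acetone groups.

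Sample numbers did not pair the libraries: deviations of same-numbered libraries correlated between -0.152 and 0.035. With the replicate block, 5 genes in all were called after DMBA in place of 52, and Shh was at -0.049 between the acetone groups.

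Leaving out each library in turn, the number of all genes called ranged from 4 to 176 after DMBA, 3704 to 8901 after DMBA/TPA, 467 to 5359 for the difference of responses, 43 to 2598 between the acetone groups and 461 to 4866 between DMBA/TPA and DMBA. The number of the 10 genes called ranged from 1 to 4 after DMBA/TPA, 0 to 3 for the difference, 0 to 2 between the acetone groups and 0 to 8 between DMBA/TPA and DMBA. Log2 fold changes that crossed 0 were, after DMBA, Cd34 (-0.747 to 0.891), Sox9 (-0.085 to 0.559), Lhx2 (-0.659 to 0.167), Nfatc1 (-0.208 to 0.665), Tcf7l1 (-0.165 to 0.192), Foxc1 (-0.132 to 0.598) and Gli1 (-0.499 to 0.374). After DMBA/TPA they were Sox9 (-0.404 to 0.211), Lhx2 (-0.552 to 0.368), Tcf7l2 (-0.096 to 0.223), Foxc1 (-0.443 to 0.253) and Gli1 (-0.018 to 1.015). For the difference they were Sox9 (-0.694 to 0.015), Lhx2 (-0.339 to 0.678), Tcf7l2 (-0.188 to 0.127) and Foxc1 (-0.722 to 0.071). Between the acetone groups they were Cd34 (-0.157 to 1.495), Nfatc1 (-0.352 to 0.535), Shh (-2.295 to 0.845), Ptch1 (-0.096 to 0.244) and Gli1 (-0.088 to 1.035).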
